A study of Mus musculus with 2 samples.

Results

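The 7 homeostatic microglia genes *Tmem119*, *P2ry12*, *Cx3cr1*, *Siglech*, *Sall1*, *Gpr34* and *Olfml3* were followed across 2 mouse cerebellar sections that held breast tumors. They were taken by name, as genes known to mark resting microglia, and all 7 are among the 19465 genes of the count matrices. Microglia are the resident macrophages of the brain parenchyma. In the undisturbed brain they keep a set of surface receptors and a transcription program that depends on local signals such as TGF-β, and this set is known to be turned down when microglia respond to injury or plaque. Macrophages that enter from the blood share the general macrophage genes with microglia but carry little of the homeostatic set, so the genes are widely used to set microglia apart from other macrophages.

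Each section came from 1 B6 mouse whose cerebellum had been injected with dissociated HP organoids, and neither section was treated. HP organoids are mouse mammary tumor cultures with HER2 V777L and PIK3CA H1047R, grown from tumors that were started by adenovirus with Cre and labeled with luciferase. Their human HER2 transgene is driven by an actin promoter. The labels call the organoids HP-F1 +cre for replicate 1 (section 1) and HP-B6 +cre for replicate 2 (section 2), and no tumor-free section was analyzed here. Fixed sections of 5 µm were read on a capture area of 6.5 mm with the Visium CytAssist assay, in which probes ligated on a transcript are caught by barcoded spots and each molecule counts as 1 UMI. One spot covers a patch of tissue with several cells. Because probes can differ in efficiency, the genes were not ranked by level, and a ratio of one gene to another was compared only between regions.

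Spots were placed by genes other than the 7, from the log2 ratio of UMIs of 15 tumor genes (keratins, claudins, collagens, cycling genes) to UMIs of 19 neural genes. The tumor spots of the sections differed in which of these kinds of gene were high, as given below. Of 3406 and 4017 spots under tissue, 3315 and 3999 held at least 500 UMIs and 10 genes. Tumor spots numbered 806 in section 1 and 781 in section 2, and edge spots, 1 to 3 array steps outside the tumor, numbered 186 and 329. Neural spots, 4 or more steps away with a ratio in the lowest of 3 classes, numbered 1953 and 2355. The remaining 370 and 534 spots at 4 or more steps had a mixed ratio and were kept apart from the tests. Depth followed the regions, with a median of 53174.5 and 41923 UMIs in tumor spots against 7523 and 9706 in neural spots, so levels are given per 1000000 UMIs (CPM). Fewer microglia, less RNA per microglial cell and more RNA from other cells cannot be told apart by CPM in such spots.

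**Figure D1:**
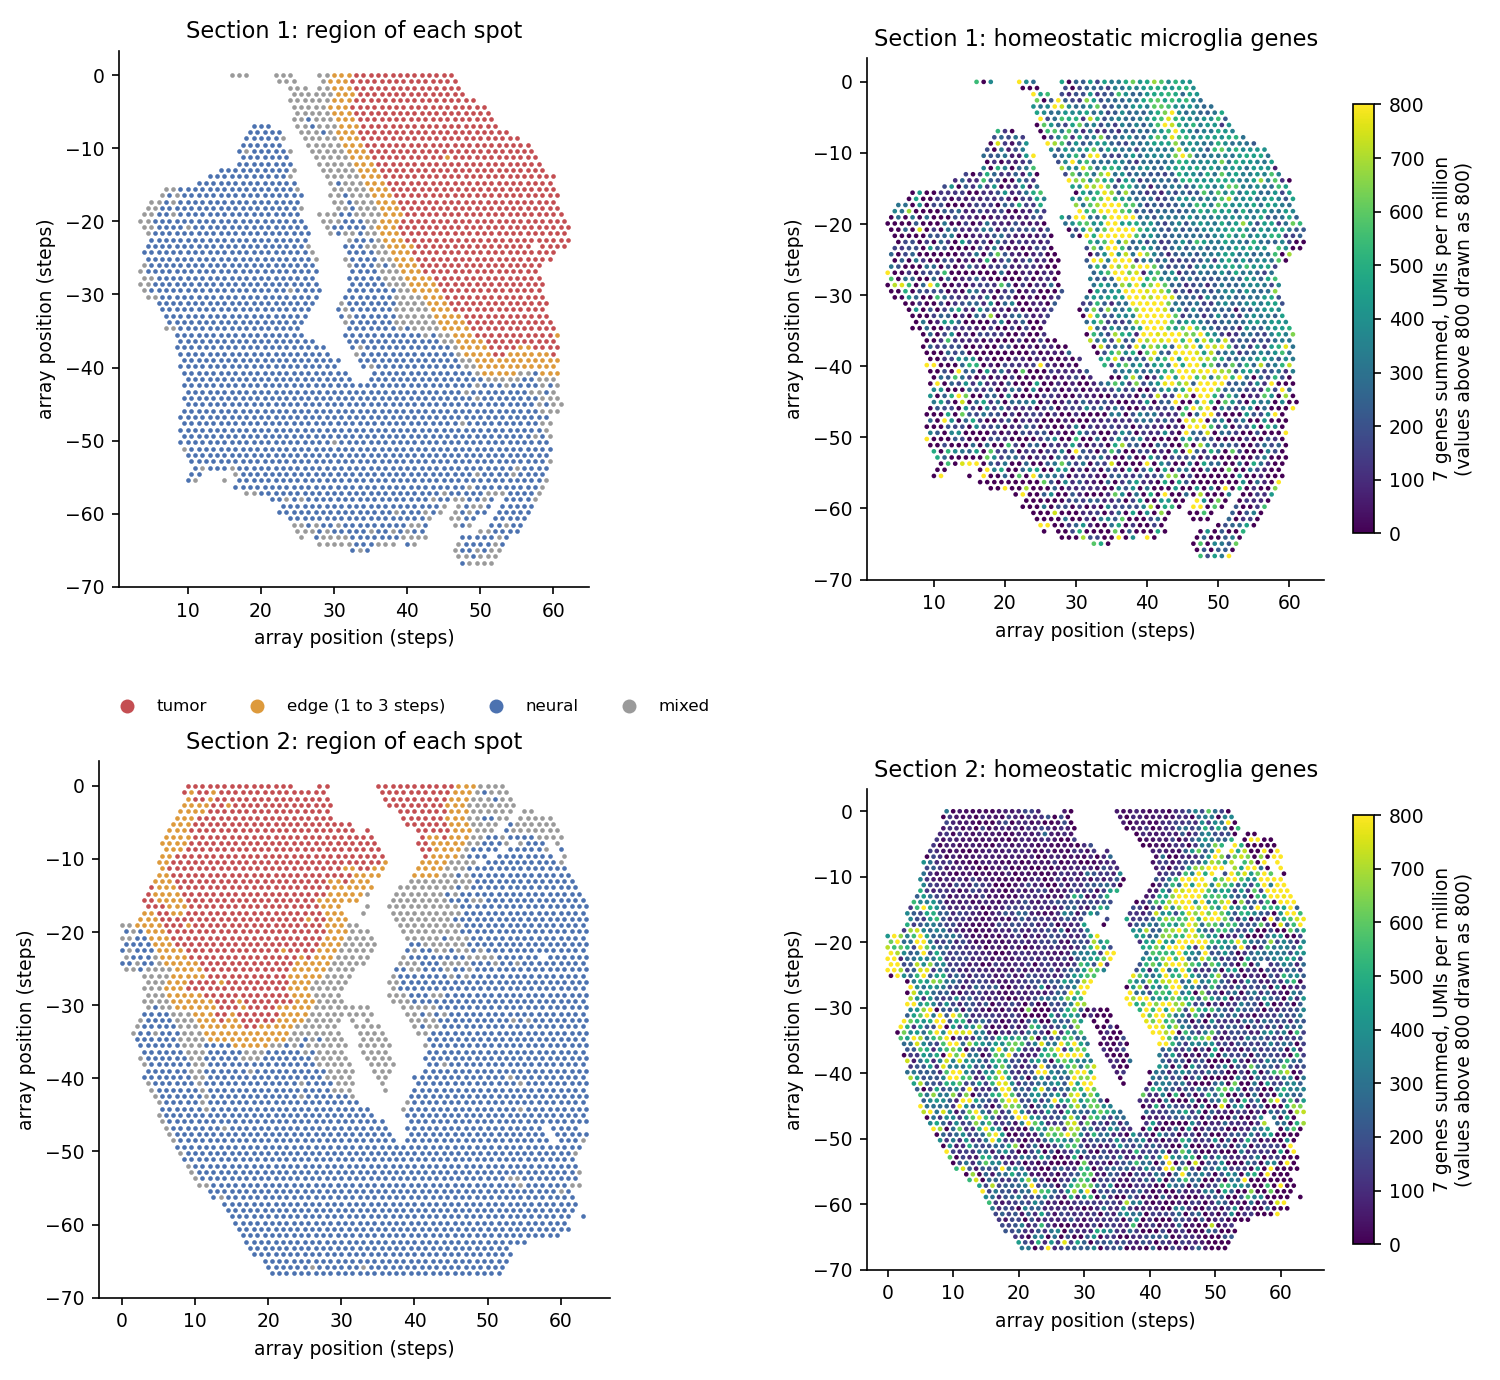
Maps of section 1 (top) and section 2 (bottom) in array steps, with the region of each spot on the left and UMIs of the 7 genes per 1000000 UMIs of the spot on the right (values above 800 are drawn as 800). A belt of high spots lies outside the tumor in both sections, and the tumor interior is brighter in section 1, at 345.8 CPM, than in section 2, at 89.3 CPM.

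By the RefSeq annotation of GRCm38.p6 (the same assembly as mm10, which the submitters' processing notes name), all 7 genes matched by symbol. *Tmem119* lies at chr5:113793729-113800396 and *P2ry12* at chr3:59216271-59262985. *Cx3cr1* lies at chr9:120048683-120068296 and *Siglech* at chr7:55768154-55779448. *Sall1* lies at chr8:89027242-89044162, *Gpr34* at chrX:13622650-13640859 and *Olfml3* at chr3:103735394-103738001. Promoter windows, from 250 bases before to 50 after a listed start, were at hand for 5 of the 7 genes, and *Tmem119* and *Gpr34* had no entry. A gene can have more than 1 listed start. They were searched on both strands for GGAAGT (reverse complement ACTTCC), a purine-rich core of the kind that PU.1, the ETS factor of myeloid cells, is known to bind. The letters were found in 3 of 7 windows, 1 each of *P2ry12* and *Siglech* and 1 of the 3 of *Sall1*, and in 23.8% of all 32851 windows. A second such core, GAGGAA (reverse complement TTCCTC), was found in 1 of the 7 windows, that of *Siglech*, and in 28.3% of all windows. Both motifs hold the letters GGAA. A match is a description and not a binding site. The windows with GGAAGT are printed 5′ to 3′ with that match in capitals. That of *Sall1* lies inside the span of the gene given above. A link between the letters and the levels of the genes was not tested.
P2ry12, chr3:59262936-59263235, minus strand: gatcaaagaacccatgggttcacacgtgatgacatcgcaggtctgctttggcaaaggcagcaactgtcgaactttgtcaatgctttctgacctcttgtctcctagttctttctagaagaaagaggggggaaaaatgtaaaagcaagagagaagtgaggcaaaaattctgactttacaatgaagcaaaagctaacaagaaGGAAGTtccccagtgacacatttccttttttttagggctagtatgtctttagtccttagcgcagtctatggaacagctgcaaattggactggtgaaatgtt
Siglech, chr7:55767934-55768233, plus strand: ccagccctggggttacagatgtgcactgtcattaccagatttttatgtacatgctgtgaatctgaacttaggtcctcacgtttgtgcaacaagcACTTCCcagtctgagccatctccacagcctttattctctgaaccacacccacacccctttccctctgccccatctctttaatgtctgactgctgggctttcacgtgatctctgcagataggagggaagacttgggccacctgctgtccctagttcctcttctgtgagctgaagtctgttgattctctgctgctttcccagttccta
Sall1, chr8:89042813-89043112, minus strand: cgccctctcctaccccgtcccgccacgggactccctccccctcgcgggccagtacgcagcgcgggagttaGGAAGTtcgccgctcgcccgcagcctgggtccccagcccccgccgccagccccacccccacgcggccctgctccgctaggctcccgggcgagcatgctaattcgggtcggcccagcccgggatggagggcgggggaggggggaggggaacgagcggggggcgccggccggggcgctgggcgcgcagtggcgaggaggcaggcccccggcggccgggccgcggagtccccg

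For tests, the spots of a region were pooled within each section, which gave 6 libraries with 3257328 to 41090115 UMIs, scaled by TMM. Regions were compared by the quasi-likelihood test of edgeR, blocked by section and with 2 residual degrees of freedom, and a gene was called at a Benjamini-Hochberg adjusted p below 0.05 over the 19211 genes tested. The levels below are TMM-scaled CPM for section 1 and section 2. All 7 genes were above the filter on low counts.

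*Sall1*, a zinc finger transcription factor that maintains microglial identity, was at 21.6 and 30.1 CPM in neural tissue and at 31.5 and 23.7 CPM at the edge. In the tumor it was at 5.83 and 4.29 CPM. The tumor values were below all 4 values outside the tumor. *Sall1* fell by 2.37 on the log2 scale from neural tissue to tumor (SE 0.37, edgeR adjusted p = 0.011) and by 2.44 from edge to tumor (SE 0.37, edgeR adjusted p = 0.042). It was 3.49-fold and 6.39-fold lower than in neural tissue and 5.06-fold and 5.05-fold lower than at the edge. It was the one member called in either comparison, against 27.2% of all genes called for tumor over neural tissue and 3.18% for tumor over edge. In raw UMIs per spot, *Sall1* was at 0.272 and 0.152 in tumor spots and at 0.204 and 0.343 in neural spots, and with UMIs per spot in place of CPM neither difference was called (edgeR adjusted p = 0.48 and 0.074). That scaling moved the median log2 difference of all genes between tumor and neural tissue from -0.136 to 1.84. The call of tumor against edge was also lost with RLE factors (edgeR adjusted p = 0.059) and with an edge of 2 steps (edgeR adjusted p = 0.05).

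*Siglech*, a sialic acid-binding receptor of microglia and plasmacytoid dendritic cells, was at 22.1 and 30.1 CPM in neural tissue and at 9.84 and 1.52 CPM in the tumor. The tumor was 2.19-fold lower in section 1 and 15.2-fold lower in section 2, a log2 difference of -3.02 (SE 1.0, edgeR adjusted p = 0.089). DESeq2 called it (adjusted p = 0.0019). In raw UMIs per spot, *Siglech* was at 0.459 and 0.0538 in tumor spots and at 0.209 and 0.343 in neural spots. On that scale the tumor was higher in section 1 and lower in section 2. At the edge the sections differed, with 32.0 CPM in section 1, above its neural value, and 4.19 CPM in section 2, far below. Of 5 genes for plasmacytoid dendritic cells, *Ly6d* and *Irf7* rose in the tumor by edgeR while *Siglech* was low. *Irf7* went from 14.7 and 41.8 CPM in neural tissue to 228 and 155 CPM in the tumor. *Ly6d* went from 2.00 and 8.27 CPM to 10.4 and 826.5 CPM. The epithelial gene *Epcam* was likewise far higher in the tumor of section 2, at 6.92 and 2174 CPM. The part of epithelial cells in the rise of *Ly6d* was not tested, nor was the part of other cells in the rise of *Irf7*. The other 3 were not called. In the tumor they were at 1.33 and 0.469 (*Klk1*), 3.88 and 1.19 (*Ccr9*) and 10.2 and 3.43 CPM (*Cox6a2*). In neural tissue they were at 1.08 and 0.596, 2.27 and 2.09, and 9.40 and 16.6 CPM. The call of *Ly6d* was lost without the replicate block, with library size alone and with an edge of 5 steps (edgeR adjusted p = 0.14, 0.056 and 0.055).

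Genes of neural tissue fell in the same direction as *Sall1*. From neural tissue to tumor, 7 of 7 myelin genes fell (median log2 difference -4.59), as did 3 of 4 granule neuron genes (-3.80) and 5 of 5 Purkinje cell and molecular layer genes (-4.98). From edge to tumor 7 of 7 myelin genes fell too (-3.55). Of these genes 4, 1 and 2 had served to place the spots, so that their direction was set by the rule. The part of the lost neural tissue in the values of *Sall1* and *Siglech* was not tested.

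*P2ry12*, the ADP receptor that guides microglial processes, was at 38.8 and 53.5 CPM in neural tissue, 44.2 and 32.0 CPM at the edge and 34.7 and 12.1 CPM in the tumor. *Gpr34*, a receptor for lysophosphatidylserine, was at 17.9 and 17.7 CPM in neural tissue, 33.3 and 19.0 CPM at the edge and 16.3 and 4.19 CPM in the tumor. In CPM both were close to their neural level in the tumor of section 1 and several-fold lower in that of section 2. In raw UMIs per spot, *P2ry12* was at 1.62 and 0.428 in tumor spots and at 0.368 and 0.610 in neural spots. *Gpr34* was at 0.758 and 0.149 in tumor spots and at 0.170 and 0.202 in neural spots. The log2 differences of tumor over neural tissue were -1.15 (SE 0.53, edgeR adjusted p = 0.17) for *P2ry12* and -1.08 (SE 0.53, edgeR adjusted p = 0.19) for *Gpr34*.

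*Tmem119*, a membrane protein used as a microglial marker that is also known from osteoblasts, was at 15.3 and 25.6 CPM in neural tissue, 60.6 and 39.4 CPM at the edge and 125 and 27.4 CPM in the tumor. Tumor exceeded neural tissue 7.94-fold in section 1 and 1.07-fold in section 2 (log2 difference 1.58, SE 0.76, edgeR adjusted p = 0.18, and called by DESeq2 at adjusted p = 0.046). The direction in section 2 depended on the scaling, since before TMM the tumor was at 23.4 CPM and neural tissue at 26.0 CPM. *Cx3cr1*, the fractalkine receptor that microglia share with some monocytes, was at 60.5 and 99.1 CPM in neural tissue, 170 and 130 CPM at the edge and 181 and 53.6 CPM in the tumor. The tumor stood above neural tissue in section 1 and below it in section 2 (log2 difference 0.36, SE 0.63, edgeR adjusted p = 0.67). *Olfml3*, a secreted olfactomedin-like protein with few UMIs, was at 2.97 and 2.87 CPM in neural tissue, 3.38 and 4.61 CPM at the edge and 6.15 and 1.62 CPM in the tumor, again opposite in the sections (log2 difference 0.26, SE 0.62, edgeR adjusted p = 0.76).

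**Figure D2:**
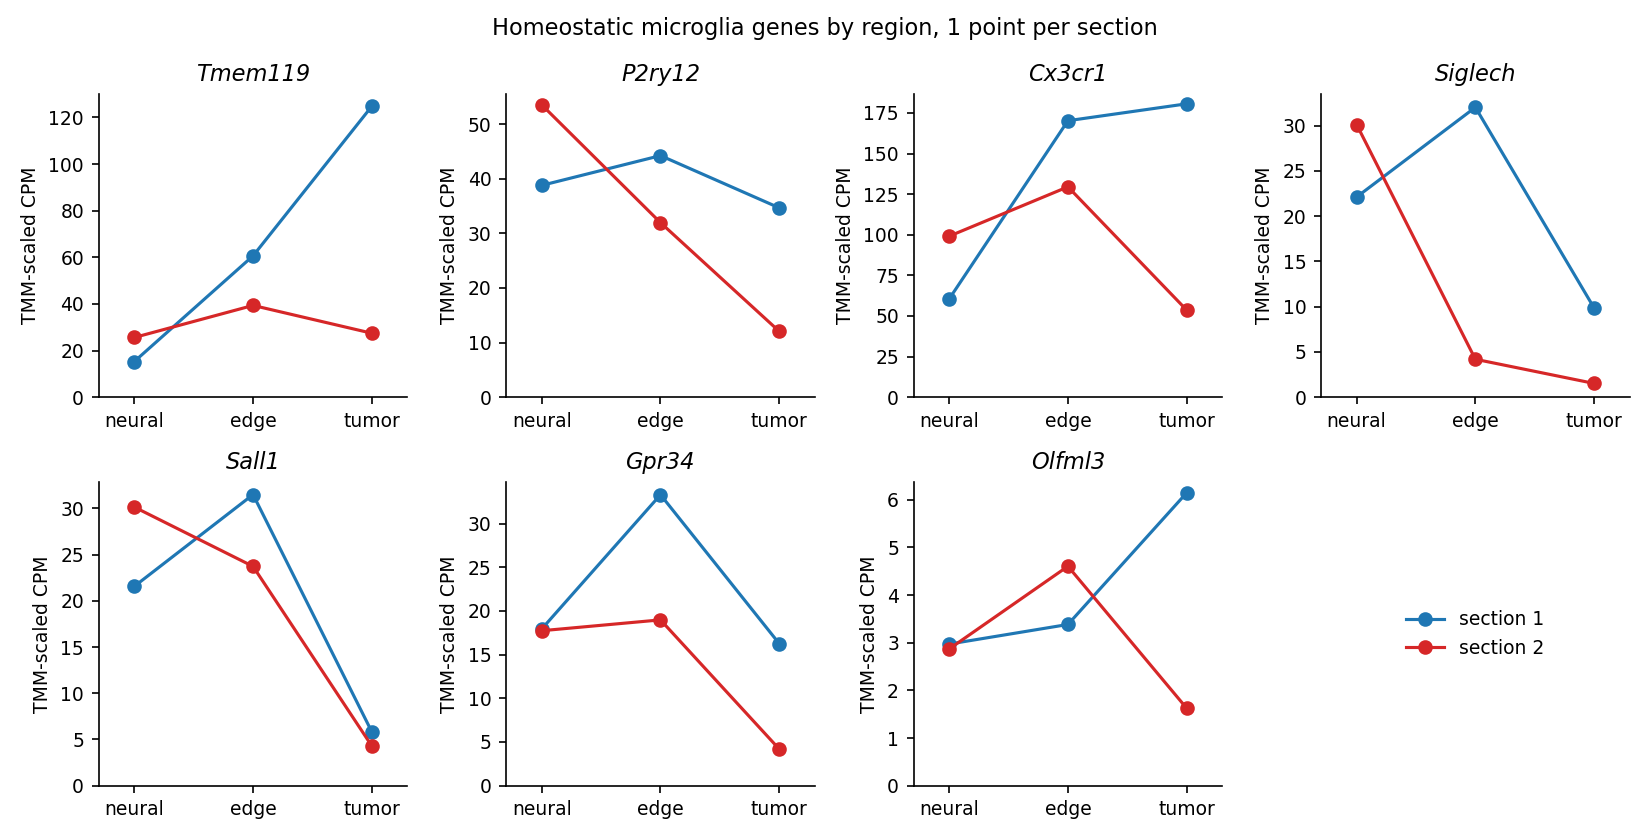
TMM-scaled CPM of each gene in neural, edge and tumor spots, 1 point per section, each axis from 0. *Sall1* and *Siglech* lie below their neural level in both tumors, while *Tmem119*, *Cx3cr1* and *Olfml3* are highest in the tumor of section 1 and not in that of section 2.

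No member was called between edge and neural tissue by edgeR (0 of 7, 0 at an unadjusted p below 0.05, and 0 by DESeq2). There edgeR called 6.5% of all genes and DESeq2 3354 of 19211. *Tmem119*, *Cx3cr1*, *Gpr34* and *Olfml3* were higher at the edge in both sections, with edgeR log2 estimates over both of 0.43 to 1.13. Within a section the log2 differences ran from 0.095 (*Gpr34*, section 2) to 1.953 (*Tmem119*, section 1), and *Olfml3* was at 0.161 in section 1. *P2ry12*, *Siglech* and *Sall1* were higher at the edge in section 1 and lower in section 2. Over the 7 genes the median log2 difference was 0.43 for edge over neural tissue and -1.08 for tumor over neural tissue, beside -0.006 and -0.136 over all genes.

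**Figure D3:**
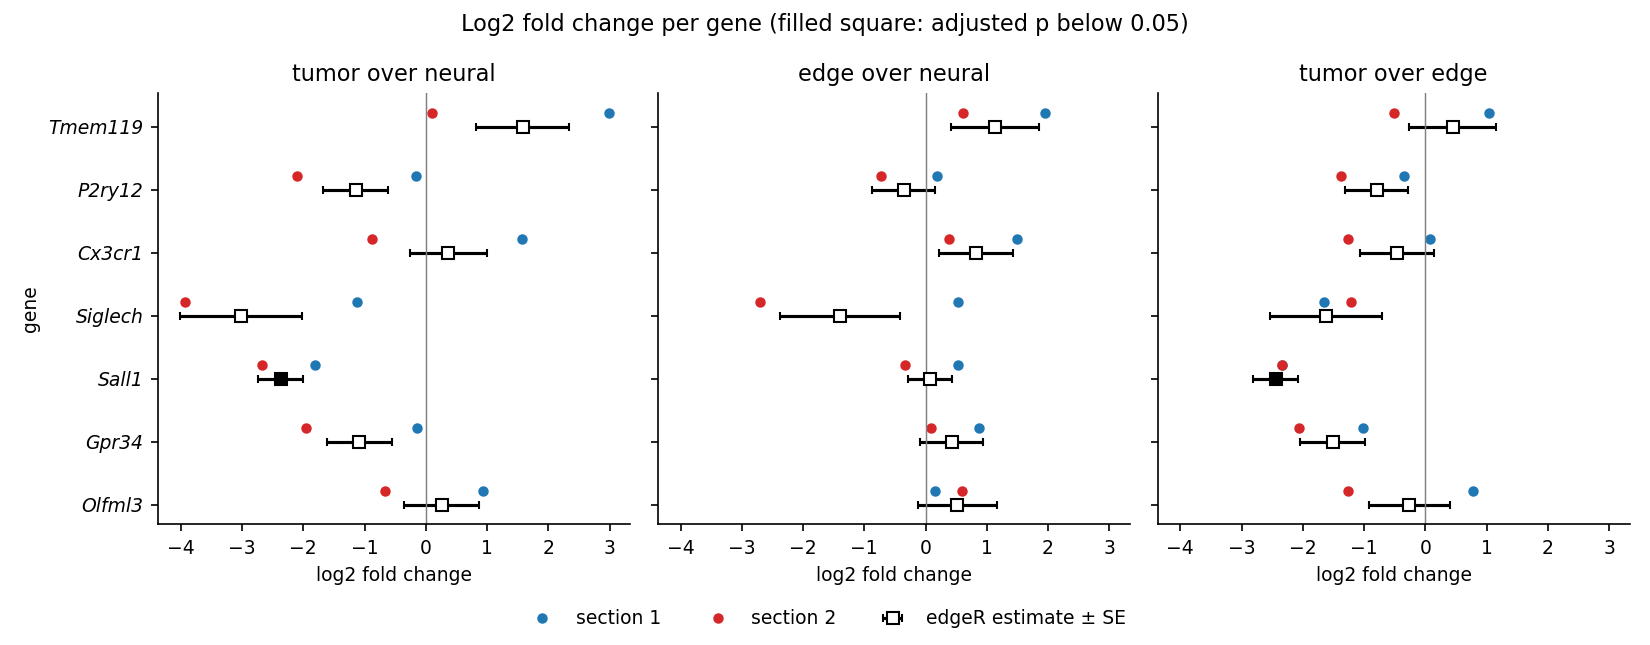
Log2 fold change of the 7 genes for tumor over neural tissue, edge over neural tissue and tumor over edge; squares with bars are edgeR estimates with their SE (filled where the adjusted p was below 0.05), and circles are the sections. *Sall1* alone is filled, in the panels with the tumor, and its circles for tumor over edge coincide at -2.34.

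The tumors differed in ways that ran with these values. They differed in kinds of genes that had placed the spots, given here as TMM-scaled CPM for sections 1 and 2. The keratin *Krt7* was at 3.087 and 4658 in the tumor, and the epithelial gene *Epcam* at 6.918 and 2174. The collagen *Col1a1* was at 23670 and 240, while the cycling gene *Mki67* was alike at 175.3 and 181.5. The tumor regions were thus not alike in epithelial and collagen genes. Genes of fibroblasts summed to 3641 CPM, before TMM scaling, in the tumor of section 1 and 182 CPM in that of section 2, and 11 genes shared by macrophages and microglia (*Aif1*, *Cd68*, the C1q chains and others) summed to 10890 and 2219 CPM. Their part in the levels of *Tmem119* and *Cx3cr1* was not tested. Across tumor spots of both sections, the gene most like *Tmem119* was *Cx3cr1*, with Pearson correlations of only 0.219 over 806 spots and 0.188 over 781 spots. *Cx3cr1* itself followed *C1qa*, with correlations of 0.423 and 0.499. Spots of a section share the library and depth, and these values are descriptions.

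The members were then set against *Cx3cr1*, within the same summed libraries, to see how the make-up of the set changed. For each 100 UMIs of *Cx3cr1*, neural tissue held 64.2 and 54.0 UMIs of *P2ry12*, the edge 26.0 and 24.7, and the tumor 19.2 and 22.5. *Sall1* went from 35.7 and 30.4 through 18.5 and 18.3 to 3.23 and 8.01, and *Siglech* from 36.5 and 30.4 through 18.8 and 3.23 to 5.45 and 2.83. In both sections the ratios of these 3 genes were highest in neural tissue and lowest in the tumor. *Gpr34* also had its lowest ratio in the tumor, at 9.004 and 7.811 against 29.7 and 17.9 in neural tissue. *Olfml3* had no such order, at 4.92 and 2.90 in neural tissue, 1.99 and 3.56 at the edge and 3.404 and 3.03 in the tumor. *Tmem119* increased in ratio, from 25.3 and 25.8 in neural tissue to 35.6 and 30.4 at the edge and 69.1 and 51.2 in the tumor. *Tmem119* and *Cx3cr1* left 57.7% and 51.9% of the summed UMIs of the set to the 5 other genes in neural tissue, 38.5% and 33.1% at the edge and 19.2% and 22.6% in the tumor. Ratios of this kind remove what a gene shares with *Cx3cr1*, and they were compared between regions with no test. They also move with *Cx3cr1* itself, which some monocytes share. Across tumor spots *Cx3cr1* followed *Cd74* as well, with Pearson correlations of 0.428 and 0.355. The part of other cells in the *Cx3cr1* of each region was not tested.

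Against the 11 shared macrophage and microglia genes the summed set was lower in mixed, edge and tumor spots than in neural tissue. The 7 genes together gave 14.2 and 13.8 UMIs for each 100 UMIs of the shared list in neural tissue, 7.372 and 5.995 in mixed spots, 3.33 and 2.73 at the edge and 3.17 and 4.03 in the tumor. Both neural values lay above the values of every other region, in each section. The shared list itself was higher in those regions, at 1410 and 1900 CPM before TMM scaling in neural tissue against 13300 and 8830 CPM at the edge. *Tmem119* alone differed little between neural tissue and tumor on this ratio, with 1.21 and 1.37 against 1.05 and 1.06. It was lower in the regions between them, at 0.823 and 0.783 in mixed spots and 0.538 and 0.426 at the edge.

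**Figure D4:**
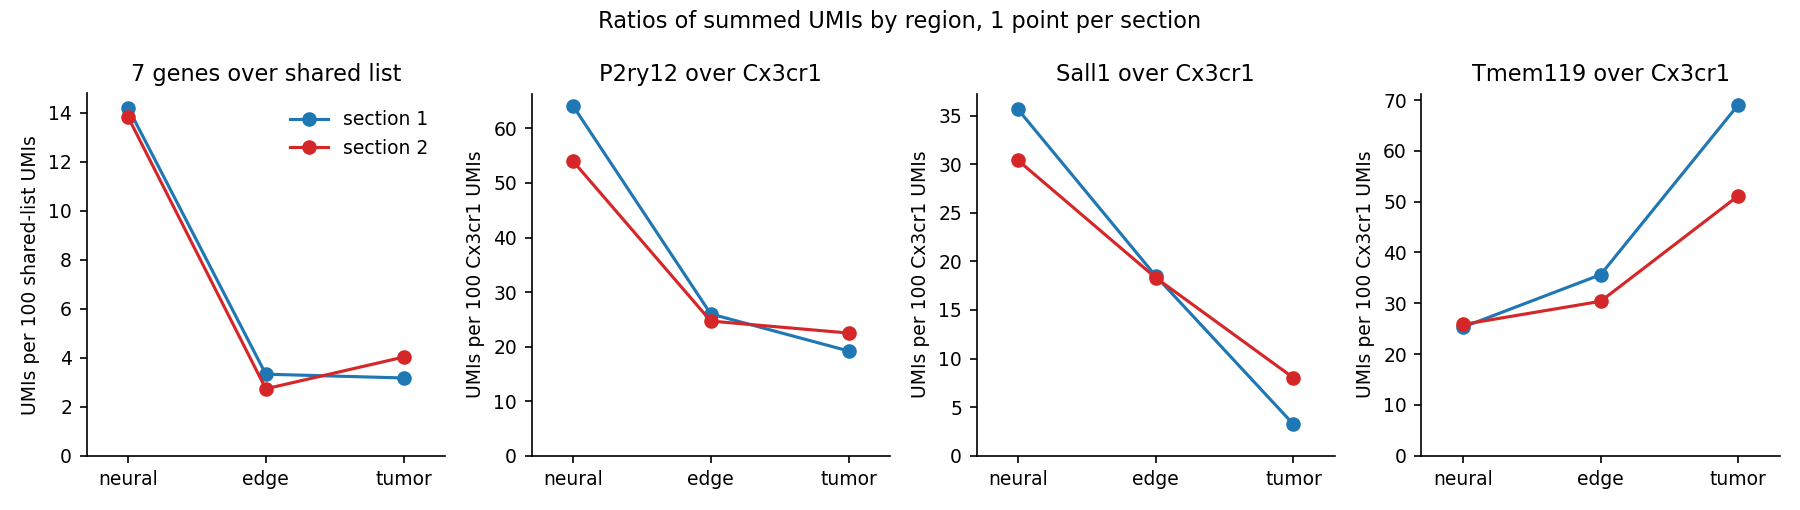
Ratios of summed UMIs in neural, edge and tumor spots, 1 point per section, for the 7 genes over 11 shared macrophage and microglia genes and for *P2ry12*, *Sall1* and *Tmem119* over *Cx3cr1*, each axis from 0. The first 3 ratios are highest in neural tissue, and *Tmem119* over *Cx3cr1* is highest in the tumor, at 69.1 and 51.2 UMIs per 100.

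Summed over the 7 genes, mixed spots held 543 and 439 CPM before TMM scaling, above the 200.5 and 263 CPM of neural tissue, the 443 and 241 CPM of the edge and the 346 and 89.3 CPM of the tumor. By array distance, the set likewise had its highest CPM outside the tumor in both sections. In section 1 the 7 genes summed to 392 CPM at 9 or more steps inside the tumor, 373 CPM at 1 step outside, 644 CPM at 6 steps (exact Poisson 95% interval 590 to 703, for counting error only) and 134 CPM at 21 or more steps. In section 2 they summed to 62.9 CPM at 9 or more steps inside, 204 CPM at 1 step outside, 439 CPM at 7 to 8 steps (409 to 471) and 191 CPM at 21 or more steps. The peak was 4.80 times the level far from the tumor in section 1 and 2.302 times in section 2. UMIs per spot are not divided by the total and so carry the depth of a spot, which was higher in the tumor. On that scale section 1 had its highest value inside the tumor, with 22.6 at 6 to 8 steps inside against 9.03 at 4 steps outside. Section 2 had it outside, with 6.23 at 4 steps outside against 5.04 at 1 step inside. Mixed spots made up much of this belt, since 27 of 63 spots at 6 steps in section 1 and 73 of 155 at 7 to 8 steps in section 2 were of the lowest class.

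The shared macrophage and microglia genes peaked closer to the tumor, at 2 steps in section 1 (13770 CPM) and 3 steps in section 2 (10400 CPM). The ratio of the set to that list therefore climbed with distance, from 2.76 and 2.79 per 100 UMIs at 1 step to 21.2 and 18.8 at 21 or more steps. A list of 16 genes of disease-associated microglia (*Apoe*, *Trem2*, *Spp1* and others, 15 of them in the files) peaked at 1 step in section 1 (40560 CPM) and 2 steps in section 2 (47090 CPM).

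The members did not peak together. *Cx3cr1* was highest outside the tumor at 5 steps in section 1 (294 CPM) and 7 to 8 steps in section 2 (212 CPM), and *Gpr34* at 6 steps in both (82.1 and 33.6 CPM). *Sall1* reached 58.1 CPM at 4 steps and 43.1 CPM at 7 to 8 steps, and it went down in steps across the boundary, in section 1 from 32.7 CPM at 1 step outside through 16.9 and 9.51 CPM at 1 and 2 steps inside to 4.38 CPM at 3 to 5 steps inside. In section 2 the same positions gave 18.3, 6.68, 5.00 and 1.90 CPM. *P2ry12* peaked at 6 steps in section 1 (105 CPM) but at 13 to 20 steps in section 2 (72.6 CPM), where it was at 25.8 CPM next to the tumor. Most of these positions moved when spots were split in 2 classes in place of 3 (the 2-class threshold). *P2ry12* then peaked at 7 to 8 steps in section 1 and 6 steps in section 2, and *Sall1* at 7 to 8 and 3 steps. *Cx3cr1* then peaked at 4 and 3 steps, and *Gpr34* at 5 and 6 steps.

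*Siglech* differed most between sections near the tumor. In section 1 it was at 32.7 CPM at 1 step outside and peaked at 78.3 CPM at 6 steps, while in section 2 it was at 2.42 CPM at 1 step, 19.7 CPM at 4 steps and highest, at 46.9 CPM, at 13 to 20 steps. With the 2-class threshold *Siglech* peaked at 5 steps in section 1 (72.1 CPM) and 7 to 8 steps in section 2 (51.0 CPM). *Tmem119* had no peak outside the tumor in section 1, where it went from 14.2 CPM at 21 or more steps to 83.7 CPM at 1 step outside and 123 CPM at 9 or more steps inside. In section 2 it peaked at 5 steps outside (64.7 CPM), or at 3 steps with the 2-class threshold, and was at 17.2 CPM deep inside. *Olfml3* was too sparse for an order of steps, with intervals that overlapped at nearly all distances.

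**Figure D5:**
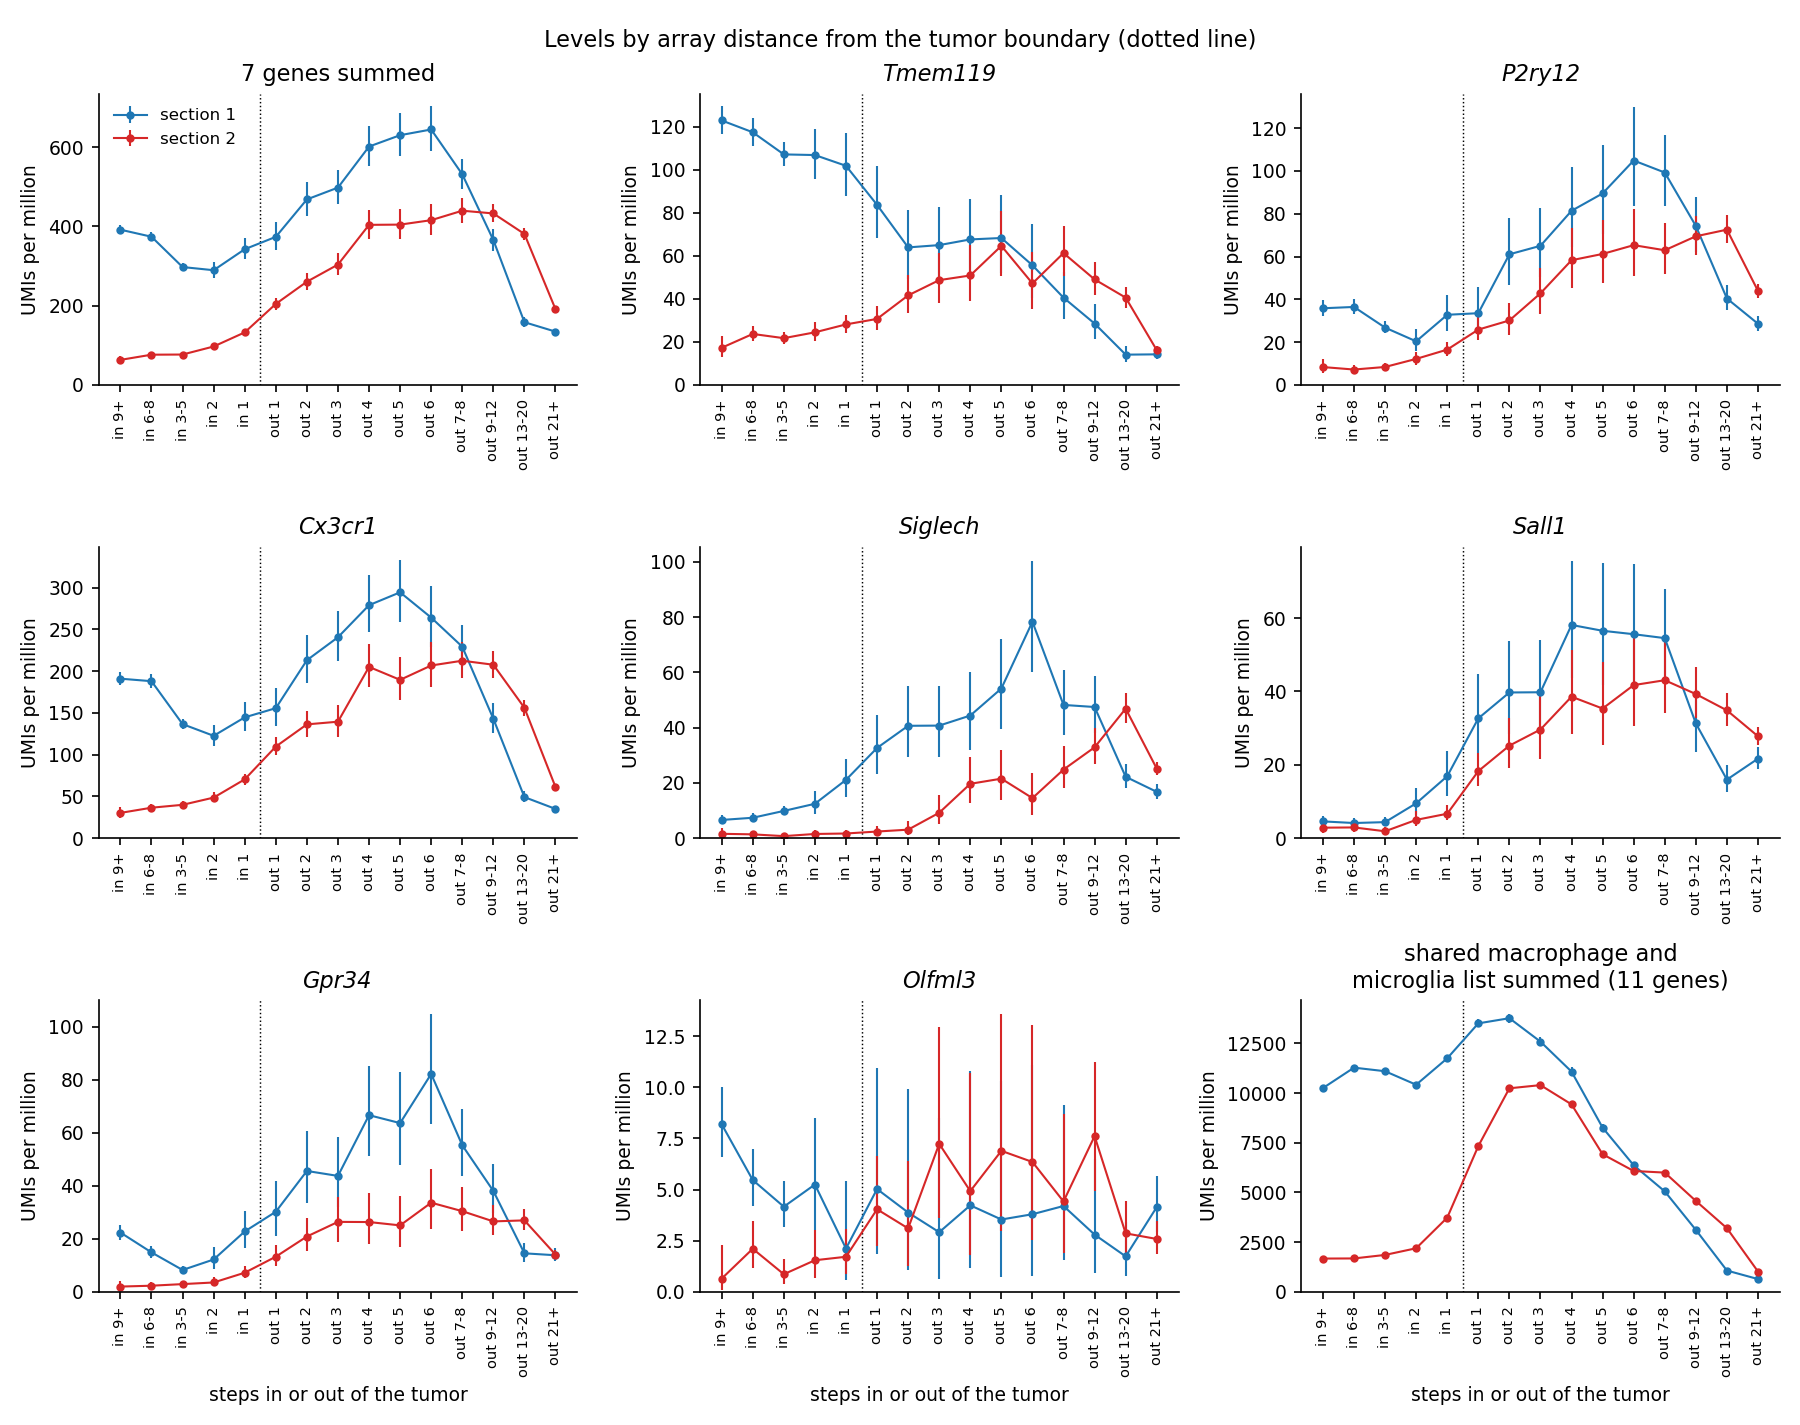
UMIs per 1000000 (CPM) by steps inside (in) and outside (out) the tumor for the 7 genes summed, for each gene and for 11 shared macrophage and microglia genes, with exact Poisson 95% intervals for counting error only; the dotted line is the tumor boundary. The sum peaks at 6 steps outside in section 1 and 7 to 8 in section 2, farther out than the shared genes at 2 and 3 steps, and *Tmem119* is highest inside the tumor in section 1.

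These distances were tested in 5 bins per section, the tumor core (3 or more steps inside), the rim (1 to 2 steps), the edge, near neural tissue (4 to 8 steps) and far neural tissue (9 or more), over 18943 genes with 4 residual degrees of freedom. *Cx3cr1* was at 207 and 172 CPM in near and 45.6 and 93.2 CPM in far neural tissue, a log2 difference of 1.34 (SE 0.64, edgeR adjusted p = 0.62). *Tmem119* was at 33.3 and 42.0 CPM near and 13.6 and 24.3 CPM far, and *Gpr34* at 50.9 and 23.5 CPM near and 14.7 and 17.4 CPM far. These 3 genes were higher near the tumor in both sections. edgeR called none of the 7 between near and far tissue, nor any gene at all (0.0% of 18943, with 1670 at an unadjusted p below 0.05), and DESeq2 called 323 genes and none of the 7. Near tissue rested on 129 and 141 spots.

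Between core and far tissue, where 36.2% of all genes were called, *Sall1* and *Siglech* fell. *Sall1* was at 4.81 and 2.85 CPM in the core against 18.9 and 30.5 CPM far away, a log2 difference of -2.78 (SE 0.43, edgeR adjusted p = 0.0032). *Siglech* was at 8.89 and 1.31 CPM in the core against 19.2 and 31.3 CPM far away, a log2 difference of -3.25 (SE 0.98, edgeR adjusted p = 0.041). Both were lower in the core of each section. The *Siglech* call was lost without the replicate block (edgeR adjusted p = 0.23), and both calls were lost in UMIs per spot (edgeR adjusted p = 0.24 for *Sall1* and 0.32 for *Siglech*). Between rim and core edgeR called no member (0.0% of all genes, 926 at an unadjusted p below 0.05), and DESeq2 called 292 genes and none of the 7. *Sall1* was at 12.7 and 6.82 CPM in the rim, above the core in both sections (log2 difference 1.32, SE 0.42, edgeR adjusted p = 0.63). With a 2-class threshold 675 genes were called, and *Sall1* among them (log2 1.99, SE 0.30, edgeR adjusted p = 0.016).

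Within neural tissue, spots were split by which of 3 lists stood highest for the section, giving 1225 and 1407 spots led by myelin genes, 375 and 445 by granule neuron genes and 353 and 503 by Purkinje cell and molecular layer genes. *Sall1* was at 25.9 and 46.3 CPM in myelin-led spots, 24.4 and 25.6 CPM in granule-led spots and 21.1 and 14.8 CPM in Purkinje-led spots. After TMM scaling, myelin-led spots had more than Purkinje-led spots in both sections, by log2 differences of 0.29 and 1.612. The direction in section 1 depended on the scaling. Before TMM, its myelin-led spots were at 22.81 CPM and its Purkinje-led spots at 23.05 CPM. The edgeR estimate was 1.03 on the log2 scale (SE 0.27, edgeR adjusted p = 0.0092, with 20.6% of all genes called). This call was lost without the replicate block (edgeR adjusted p = 0.12), with library size alone (0.12) and in UMIs per spot (0.26). Between myelin-led and granule-led spots edgeR called 0 of the 7 genes (0 at an unadjusted p below 0.05, and 0 by DESeq2). There edgeR called 49.8% of all genes and DESeq2 5832 of 18743. *Tmem119* was at 17.1 and 31.0 CPM in myelin-led, 18.2 and 23.6 CPM in granule-led and 18.2 and 26.6 CPM in Purkinje-led spots. *Siglech* was at 22.4 and 46.1 CPM in myelin-led, 32.1 and 20.9 CPM in granule-led and 26.3 and 21.1 CPM in Purkinje-led spots, so that the order of the layers differed between the sections.

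The sum of the set across neural spots was most like *C1qa* (Pearson correlation 0.404 and 0.498), *Ctss*, *C1qc*, *C1qb* and *C4b*, among 7342 genes, over 1953 and 2355 spots. *C1qa*, *C1qb* and *C1qc* make complement C1q, which microglia produce in the brain, and *Ctss* is a lysosomal protease of microglia and macrophages. Over distance steps with at least 20 spots (54 and 59 steps), the closest was *Igfbp2* (0.902 and 0.928), with *C4b*, *S100a13* and *Itm2b* also near the top among 19338 genes. Neighboring steps share tissue and depth, so these are descriptions as well.

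Other genes of the microglial program were taken from lists of known function. Among all genes, 12.5% rose and 14.7% fell in the tumor against neural tissue and 3.25% rose at the edge. Of 12 further homeostatic genes, 1 rose (*Tgfbr1*, a TGF-β receptor, log2 2.42, SE 0.33, edgeR adjusted p = 0.0074) and 1 fell in the tumor against neural tissue (*Slc2a5*, the fructose transporter of microglia, log2 -2.17, SE 0.45, edgeR adjusted p = 0.024), with a median of 0.62. The call of *Slc2a5* was lost in UMIs per spot (edgeR adjusted p = 0.7). At the edge 1 of the 12 rose, *Fcrls*, an Fc receptor-like scavenger receptor (log2 2.02, SE 0.24, edgeR adjusted p = 0.034), with a median of 1.08. No gene at all was called between edge and neural tissue with the 2-class threshold or with mixed spots kept in neural tissue, so that this call and each later call at the edge was lost in both (edgeR adjusted p = 0.07 and 0.059 for *Fcrls*), and that of *Fcrls* also without the replicate block (0.44). *Csf1r*, the receptor on which microglia depend for survival, was at 73.6 and 148 CPM in neural tissue, 233 and 242 CPM at the edge and 433 and 120 CPM in the tumor and was called in neither comparison.

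Of 14 tested signals and regulators of microglia, 6 rose and 0 fell in the tumor, with a median of 1.59. *Il34*, a ligand of *Csf1r*, was at 72.06 and 76.98 CPM in the tumor against 23.1 and 21.3 CPM in neural tissue (log2 1.73, SE 0.40, edgeR adjusted p = 0.032), and *Csf1*, its other ligand, at 48.4 and 24.4 against 12.6 and 13.5 CPM (log2 1.40, SE 0.35, edgeR adjusted p = 0.041, but 0.064 with library size alone and 0.056 with mixed spots kept). *Tgfb1*, the cytokine that maintains the homeostatic program, was at 316 and 232 against 25.8 and 43.9 CPM (log2 3.01, SE 0.37, edgeR adjusted p = 0.0062). *Runx1*, a transcription factor known from blood cells, *Smad3* and *Itgav*, which act in TGF-β signaling, rose too. *Runx1* was at 60.6 and 123 CPM in the tumor, where *Ptprc*, of the shared macrophage and microglia list, was at 285 and 43.7 CPM. Which cells held these 6 genes was not tested. At the edge *Runx1* and *Tgfb1* rose, and both calls were lost with the 2-class threshold (edgeR adjusted p = 0.07 for each) and with mixed spots kept (0.058 and 0.059).

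Genes on lists for other myeloid states moved in the same regions. Of 15 tested genes of disease-associated microglia, 7 rose at the edge and 6 in the tumor, with medians of 2.94 and 1.90, among them *Lgals3* and *Ccl6* in both. The 7 calls at the edge became 0 with the 2-class threshold and with mixed spots kept. *Trem2*, a lipid receptor of such cells, was at 44.6 and 57.4 CPM in neural tissue and 316 and 350 CPM at the edge (log2 2.69, SE 0.61, edgeR adjusted p = 0.072). Which cells held the genes of this list, tumor cells included, was not tested. Of 7 tested genes of monocytes and macrophages derived from them, 1 rose at the edge, *Arg1* (6.86 and 13.6 CPM in neural tissue, 671 and 1409 CPM at the edge, edgeR adjusted p = 0.07 and 0.058 in those settings), and 3 rose in the tumor. The list summed to 79.5 and 80.5 CPM before TMM scaling in neural tissue, 1303 and 1567 CPM at the edge and 1836 and 499 CPM in the tumor. Much of the sum at the edge was *Arg1*. In the tumor much of it was *S100a4* in section 1 and *Arg1* in section 2. After TMM scaling *S100a4* was at 1400 and 26.1 CPM there, and *Arg1* at 165 and 431 CPM. Which cells held *S100a4* was not tested. Of 7 genes of border-associated macrophages, 4 rose and 1 fell in the tumor, and 2 rose at the edge, again 0 in those settings. None of the 11 shared macrophage and microglia genes was called by edgeR, while DESeq2 called 10 at the edge and 9 in the tumor, all higher. Over all 19211 genes DESeq2 called 1719 higher at the edge and 3903 higher in the tumor. By edgeR the list had medians of 2.52 at the edge and 1.87 in the tumor. *C1qa* was at 325 and 387 CPM in neural tissue against 2458 and 1985 CPM at the edge. Beside these, the tumor had 2 of 7 fibroblast genes higher, 3 of 5 endothelial genes higher and 1 lower, 1 of 5 platelet genes higher and 1 lower, and no call among 8 genes of T and NK cells. The part of these cells in the values of the 7 genes was not tested.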

How the data were processed

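Per the labels and the study's methods, Space Ranger 2.1.1 was run by the authors (mm10), and the deposited files hold unnormalized counts of UMIs for every gene in each spot under tissue. Spots below 500 UMIs or 10 genes were left out here. Tumor spots were the highest of 3 Otsu classes (scikit-image 0.26.0) of the log2 ratio, kept where at least 50% of neighbors agreed and 30 or more connected; distance was counted in array steps. UMIs were summed per section and region, and fitted with edgeR 4.0.16 in R 4.3.3 (filterByExpr, TMM, robust glmQLFit), blocked by section, since its regions share 1 mouse (common dispersion 0.107, and 0.162 if unblocked). Scripts were tested on simulated data. p-values rest on 2 sections and intervals (95%) cover counting error only. The 2 sections use 3096 barcodes in common, since barcodes name array positions. The members and lists, and the rule that all members and at most 4 examples per list are named, were chosen with earlier results of these data known. *S100a4*, *Klk1*, *Ccr9*, *Cox6a2* and the other genes of uncalled lists were named after their values were seen. Genes absent from the matrices were not analysed here. Alternatives were RLE factors, library size only, UMIs per spot, no filter, no block, DESeq2 1.42.0, 1000 UMIs, a 2-class threshold, no neighbor or size rule, an edge of 2 or 5 steps and leaving out a section; added after seeing the data were enclosed spots (up to 6) counted as tumor and mixed spots kept in neural tissue. Sequences are RefSeq's.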

Additional observations from a re-analysis of the deposited data

How the results depend on the processing

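Differences below are log2 values, and the cause of each change was not tested. Of the 7 genes, 1 was called between tumor and neural tissue. UMIs per spot gave 3 (*Tmem119*, *Cx3cr1* and *Olfml3*, all higher, and not *Sall1*). DESeq2 gave 3 (*Tmem119* higher, *Siglech* and *Sall1* lower), with 6819 of all 19211 genes called. The other 11 alternatives called *Sall1* alone. Between tumor and edge 1 became 0 with RLE factors, UMIs per spot and an edge of 2 steps. Between myelin-led and granule-led spots 0 became 1 with RLE factors and a 2-class threshold (*Sall1*) and with library size alone and UMIs per spot (*Olfml3*). Edge against neural and near against far tissue stayed at 0 in all settings run. The peak outside over far tissue was 4.52 and 2.75 with the 2-class threshold, and it lay at 4 steps in section 1 and 6 steps in section 2. UMIs per spot turned *P2ry12* (0.85) and *Gpr34* (0.91) for tumor over neural, *P2ry12* for edge over neural (0.62), *P2ry12* (0.22), *Cx3cr1* (0.57) and *Olfml3* (0.76) for tumor over edge, *Siglech* for near over far (0.50), and *Tmem119* (-0.58), *P2ry12* (-0.53), *Siglech* (-0.40), *Sall1* (-0.25) and *Gpr34* (-0.61) for myelin-led over granule-led. Library size alone turned *Olfml3* for tumor over neural (-0.03), *Siglech* for near over far (0.05) and *Tmem119* (-0.17), *P2ry12* (-0.13) and *Gpr34* (-0.21) between layers. The 2-class threshold turned *P2ry12* for edge over neural (0.15), *Siglech* for near over far (0.58) and *Cx3cr1* between layers (0.06). *Siglech* for near over far also turned with 1000 UMIs (0.02), without the neighbor or size rule (0.13) and without the replicate block (0.53), and *Sall1* for edge over neural with mixed spots kept (-0.05). Without the block, which paired regions of 1 mouse, members called in the 5 planned comparisons did not change in number, and all genes called between myelin-led and granule-led spots went from 9338 to 3259. With 1 section left out no test was possible, and the 2 values ran from -0.88 to 1.57 (*Cx3cr1*) and -0.67 to 0.94 (*Olfml3*) for tumor over neural, -0.74 to 0.19 (*P2ry12*), -2.71 to 0.52 (*Siglech*) and -0.34 to 0.54 (*Sall1*) for edge over neural, -0.51 to 1.03 (*Tmem119*), -1.26 to 0.08 (*Cx3cr1*) and -1.26 to 0.78 (*Olfml3*) for tumor over edge, -0.54 to 1.41 (*Siglech*) and -0.01 to 1.36 (*Sall1*) for near over far, and -0.09 to 0.39 (*Tmem119*), -0.09 to 0.49 (*P2ry12*), -0.61 to 0.36 (*Cx3cr1*), -0.51 to 1.12 (*Siglech*) and -0.27 to 0.49 (*Gpr34*) between layers. Over all genes, counts moved by more than 1.5 times with UMIs per spot (tumor over neural 5229 to 15447, edge over neural 1248 to 4321, tumor over edge 611 to 5242), DESeq2 (edge over neural 3354, tumor over edge 1878, near over far 0 to 323, layers 5832), the 2-class threshold (edge over neural 0, tumor over edge 1557), library size alone (tumor over edge 964), an edge of 5 steps (edge over neural 810) and mixed spots kept (edge over neural 0). Rim over core went from 0 to 675 with the 2-class threshold and 292 with DESeq2, core over far from 6856 to 15891 with UMIs per spot, and myelin-led over Purkinje-led from 3856 to 859 without the block. For tumor over neural tissue, 14572 genes were higher and 875 lower with UMIs per spot and 1809 and 3724 with library size alone, against 2396 and 2833. For edge over neural, UMIs per spot gave 4233 and 88 against 625 and 623. For tumor over edge it gave 4860 and 382 against 16 and 595. For myelin-led over granule-led spots it gave 275 and 8787, and library size alone 1980 and 7861, against 3915 and 5423. For core over far tissue, UMIs per spot gave 14937 and 954 and library size alone 2520 and 4921, against 3270 and 3586, and for myelin-led over Purkinje-led spots 444 and 2166 and 1155 and 2110, against 2083 and 1773. Counts of *Olfml3* (13 to 231 UMIs per library) limit its precision.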
